A study of Mus musculus with 16 samples.

Results

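Open chromatin of old and young haematopoietic stem cells (HSCs) before transplantation was compared in 8 of the 16 ATAC-seq libraries of the study, chosen by age and stage in the sample titles. Each of the 4 old libraries came from 1 male B6 mouse of 24 months. Each of the 4 young libraries came from a pool of 3 to 4 male B6 mice of 8 to 12 weeks. No treatment or transgene is named for either age, and every library was made by Omni-ATAC from 10000 HSCs flow-sorted from bone marrow, with surface markers that the labels do not give. Age therefore goes together with single against pooled donors, and these cannot be told apart. The other 8 libraries were HSCs of the same donor mice recovered from the pooled marrow of lethally irradiated young BJ recipients, which had also received Sca-1 depleted BJ helper marrow. They enter only the last comparison, and the labels do not say whether donor cells were selected. The libraries are named by age, stage and number (old pre 1 to old pre 4, young pre 1 to young pre 4).

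The lists held 27302, 30520, 17299 and 5687 peaks in old pre 1 to 4, and 28298, 23044, 21346 and 9614 in young pre 1 to 4. The shortest list of each age was thus under the others by a wide margin, and between 98.9% and 100% of the regions of old pre 4 were also called in each of the longer lists. Peaks were merged into 33012 regions, of which 5264 were called in all 8 libraries and 14671 in all 6 of the longer lists (replicates 1 to 3 of both ages). Transposition was done on day 1 for old pre 1 and 2, on day 2 for old pre 3 and 4 and young pre 1 to 3, and on day 3 for young pre 4, so that only day 2 held both ages. Of 9 HSC marker genes (Mecom, Hlf, Procr, Fgd5, Ctnnal1, Slamf1, Meis1, Kit, Tek), 8, 9, 8 and 5 had a region in old pre 1 to 4 and 8, 8, 8 and 7 in young pre 1 to 4. Of 18 T, B and NK cell genes, 1 to 4 had a region in the old lists and 2 to 4 in the young. No list had a region at 13 of them, Cd3e, Cd4, Cd8a, Cd79a and Ms4a1 included. Of 18 granulocyte and monocyte genes, 3 to 10 had a region in the old lists and 6 to 8 in the young. No list had one at 8 of them, Mpo, S100a8 and Lyz2 included. Regions at or near Klrb1c, Elane, Prtn3, Fcgr3, Klf1, Rhag and Ank1, markers of such other cells, were called in all 6 longer lists. Of 16 erythroid genes the counts were 4 to 10 in both ages, and 6 genes had no region in any list, Hba-a1 and Hbb-bs included. Of 16 endothelial and stromal genes the counts were 2 to 10 in old and 3 to 12 in young. In the strongest 5329 regions of each library, the T, B and NK genes with a region numbered 1 to 2 in both ages and the granulocyte and monocyte genes 3 to 4 in both.

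HSCs maintain all blood lineages, and with age they grow in number while their output shifts toward myeloid and platelet-forming cells. ATAC-seq reads open DNA: a transposase inserts adapters where nucleosomes and other proteins leave the double helix free, which is mostly at promoters and enhancers. A set of genes with higher RNA in aged HSCs has been described repeatedly, among them genes for adhesion and coagulation proteins of platelets and endothelium (Selp, Vwf, Clu, Itgb3), metallothioneins and the Hippo pathway coactivator Wwtr1. The Hippo pathway restrains the coactivators YAP and TAZ, which act through TEAD factors on DNA. Because the caller's score is not comparable between libraries, each region was given its percentile within a library, and the difference between ages was taken in normal scores of that percentile (1 unit is 1 standard deviation of a library's regions).

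Several of the regions with small p-values lay over gene starts, and 4 promoters inside them are shown so that the DNA behind the results can be read. Each sequence is the 250 bases before the start of the gene in RefSeq GRCm38.p6, 5′ to 3′ on the strand of the gene. Capitals mark a match to the SP/KLF GC box (GGGGCGGGG) or the NF-Y CCAAT box (CCAATCA) on either strand. The first 3 were stronger in old HSCs and the last in young HSCs, with their values given further on. The windows are Wwtr1 at chr3:57575911-57576160 (minus strand), Rorb at chr19:19111197-19111446 (minus), Cavin2 at chr1:51288876-51289125 (plus) and Arhgap30 at chr1:171388710-171388959 (plus).
Wwtr1: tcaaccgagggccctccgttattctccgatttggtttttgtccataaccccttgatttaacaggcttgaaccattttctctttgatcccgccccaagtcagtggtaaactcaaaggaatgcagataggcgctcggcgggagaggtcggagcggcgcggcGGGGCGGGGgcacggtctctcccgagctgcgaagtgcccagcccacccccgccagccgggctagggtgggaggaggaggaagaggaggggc
Rorb: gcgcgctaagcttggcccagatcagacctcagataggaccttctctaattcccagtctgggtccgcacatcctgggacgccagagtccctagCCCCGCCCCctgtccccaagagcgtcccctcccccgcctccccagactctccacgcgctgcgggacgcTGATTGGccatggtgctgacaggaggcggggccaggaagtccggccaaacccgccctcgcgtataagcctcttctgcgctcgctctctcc
Cavin2: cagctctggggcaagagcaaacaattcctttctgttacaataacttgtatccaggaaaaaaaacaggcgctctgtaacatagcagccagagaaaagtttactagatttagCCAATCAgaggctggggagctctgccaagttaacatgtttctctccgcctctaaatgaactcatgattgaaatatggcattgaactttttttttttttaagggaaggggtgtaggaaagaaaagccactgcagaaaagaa
Arhgap30: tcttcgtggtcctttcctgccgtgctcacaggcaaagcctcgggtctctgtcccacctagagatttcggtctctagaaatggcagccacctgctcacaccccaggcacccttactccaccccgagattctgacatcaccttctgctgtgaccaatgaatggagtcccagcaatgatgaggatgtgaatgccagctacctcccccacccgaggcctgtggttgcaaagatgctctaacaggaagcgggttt
Their GC content was 61.6%, 66%, 40.4% and 55.6%. The Wwtr1 window held 1 GC box, the Rorb window 1 GC box and 1 CCAAT box, the Cavin2 window 1 CCAAT box, and the Arhgap30 window none of the motifs searched. In all, 12 such windows of 11 genes lay in regions that passed the threshold as higher in old HSCs. Of these, 4 (33.3%) held a GC box and 3 (25%) a CCAAT box, beside 13.9% and 8.56% of the 21263 promoter windows in the RefSeq table. Both windows of Wwtr1 are among the 4, and they overlap and hold the same GC box. Of the 3 windows in regions that passed as lower, 1 (33.3%, Arhgap4) held a GC box and 0 a CCAAT box. These counts are too small to be more than a description. The other motifs searched, also on both strands, were AP-1 (TGANTCA), CRE (TGACGTCA), ETS (CCGGAAGT), RUNX (TGTGGTTT), the site of GATA factors (AGATAA), NRF1 (GCATGCGC), a first kind of E-box (CACGTG), a further kind of E-box (CAGCTG), IRF (GAAANNGAA), STAT (TTCNNNGAA), NF-kB (GGANTTTCC), YY1 (AAGATGGCG) and EGR (GCGTGGGCG). AP-1, ETS and EGR each matched 1 of the 12 windows (8.33%, beside 6.13%, 3.79% and 0.72% of all promoters), and the others matched none.

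A microRNA lay in another region that was stronger in old HSCs, at Vmp1 (chr11:86579860-86586012). Both mature forms of miR-21a are given because their hairpin lies inside that region, with the seed, bases 2 to 8, in capitals (RefSeq, GRCm38.p6, minus strand).
mmu-miR-21a-5p: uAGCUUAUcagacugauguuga
mmu-miR-21a-3p: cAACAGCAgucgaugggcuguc
They lie at chr11:86584120-86584141 and chr11:86584082-86584103. The files measure open DNA, not the level of either RNA.

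At equal list length, more genes of the ageing list had a strong region in every old library than in any young one. When each list was reduced to its strongest 5329 regions, 17, 16, 13 and 15 of the 36 listed genes had a region in old pre 1 to 4, and 7, 6, 6 and 6 in young pre 1 to 4. The lowest old library lay well above the highest young one. A change in the make-up of the sorted cells and a change in accessibility per cell cannot be told apart in these libraries. Over all genes no such gap was seen, with 4664, 4585, 4744 and 4738 genes with a region in the old libraries and 4699, 4676, 4692 and 4822 in the young. Of the 20 listed genes with a region in any library at this length, 14 had one in more old than young libraries and 0 in fewer, while of 6447 genes in all 1193 had one in more and 1360 in fewer. On day 2 alone the counts were 13 and 15 in the old libraries against 7, 6 and 6 in the young. The list was chosen with earlier results of these data known, so its direction is not independent evidence, and no p-value is given over it.

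**Figure D1:**
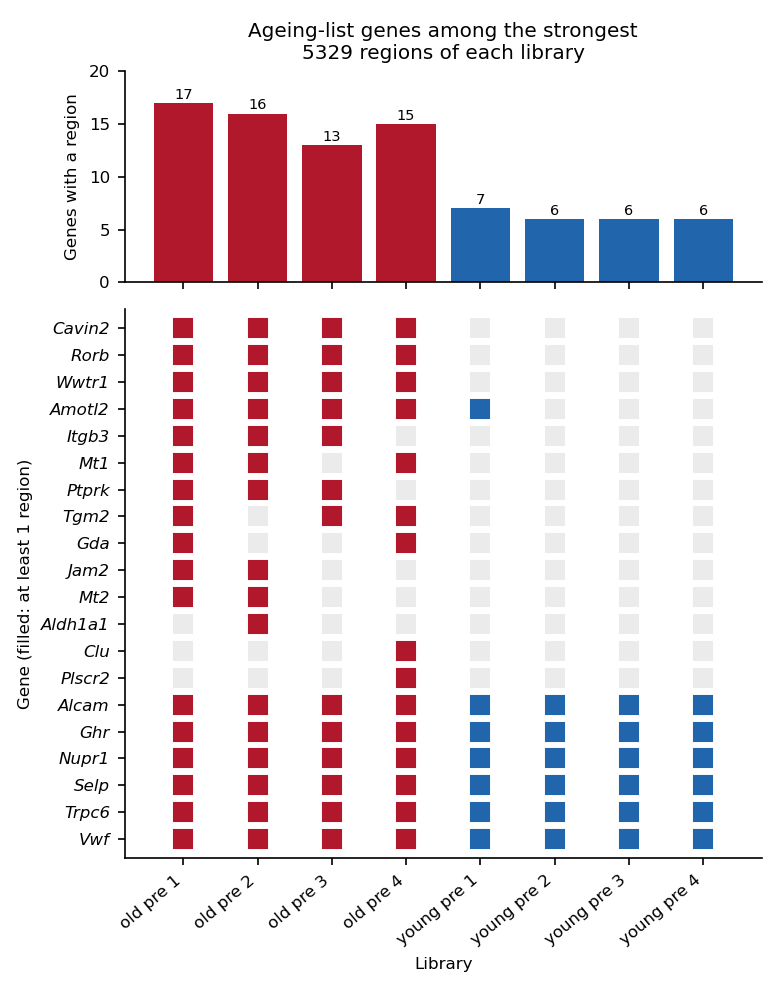
Genes of the ageing list with at least 1 of the strongest 5329 regions of each library (libraries on the x axis; bars, number of genes; lower panel, 1 square per gene and library, filled where the gene had a region). The 4 old libraries held 13 to 17 genes and the 4 young libraries 6 to 7, and the 6 genes at the bottom had a region in all 8.

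By gene, the pattern came from a limited set. Cavin2, which codes for a coat protein of caveolae, Rorb, an orphan nuclear receptor, and Wwtr1 (TAZ) had a region in 4 of 4 old and 0 of 4 young libraries. Amotl2, an angiomotin-like protein that binds YAP and TAZ, had one in 4 old and 1 young library. Itgb3, the beta chain of the platelet fibrinogen receptor, the metallothionein Mt1, the receptor phosphatase Ptprk and the transglutaminase Tgm2 had one in 3 old and 0 young libraries. The guanine deaminase Gda, the junctional adhesion molecule Jam2 and the metallothionein Mt2 had one in 2 old libraries, and Aldh1a1, Clu and Plscr2 in 1, again with 0 young.
The genes best known from RNA were not all in this set. Vwf, von Willebrand factor, and Selp, P-selectin, as well as Alcam, Ghr, Nupr1 and Trpc6, had a strong region in all 8 libraries. The other 16 genes had none at this length in any library, among them Slamf1, Cd38, Osmr, Gpr183 and Tm4sf1. Tmem47 was the only listed gene with no region in any full list. With the strongest 2664 regions the counts were 11, 11, 10 and 5 in old against 4, 4, 4 and 1 in young, and with the strongest 5329 by summit −log10 p they were 14, 13, 13 and 15 against 6, 6, 6 and 5. In the full lists, whose lengths differ, they were 33, 35, 29 and 15 against 29, 26, 25 and 11, and the ages overlapped.

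Ranked over the 14671 regions called in all 6 longer lists, 63 regions passed the adjusted threshold of 0.05 as higher in old HSCs (0.429% of those tested) and 13 as lower (0.0886%), with limma and Benjamini-Hochberg adjustment (0.518% in all). In every one of the 76 the 3 old and 3 young libraries did not overlap. Over all regions, every old library lay above every young one in 9.12% and below in 9.56%, so that non-overlap alone marks no region.

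The Wwtr1 promoter region (chr3:57574866-57576963) ranked at the 89.9, 88.7 and 93.3 percentile in old pre 1 to 3 and at the 32.1, 34.4 and 23.9 percentile in young pre 1 to 3. All 3 old libraries were high and all 3 young ones low, with no overlap. The difference was 1.86 ± 0.14 (SE; adjusted p = 0.00167, limma). At the Cavin2 start (chr1:51288154-51290276) the percentiles were 86.4, 89.6 and 85.4 in old and 22.1, 9.81 and 33.8 in young HSCs, a difference of 1.96 ± 0.21 (adjusted p = 0.011, limma). The young libraries were spread more widely here (SD 12.0, against 2.17 in old) but none came near the old ones. At the Rorb start (chr19:19109988-19112113) they were 87.5, 91.5 and 86.0 in old and 38.4, 36.9 and 36.2 in young, a difference of 1.53 ± 0.13 (adjusted p = 0.00242, limma). The young libraries were within 3 percentile points of each other at this region.

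Regions away from gene starts were among those with the smallest p-values. A region 7468 bp from Xdh, the xanthine dehydrogenase gene, stood at 77.4, 76.1 and 76.8 in old and 26.8, 21.6 and 25.5 in young HSCs (difference 1.42 ± 0.13, adjusted p = 0.00521, limma). A region within Adamts9, which codes for a secreted metalloprotease, stood at 95.8, 95.4 and 94.8 against 63.7, 37.4 and 51.6. All of its old libraries were close together near the top, and its young libraries were scattered around the middle. The region with the largest difference of the 76 lay within Fry, at 56.7, 53.2 and 47.8 in old and 1.15, 1.01 and 0.0375 in young HSCs (2.72 ± 0.33, adjusted p = 0.0179, limma). Here the old libraries reached only the middle of their own lists, while the young ones were among their weakest regions. Fam163a followed the same form, with 66.1, 64.0 and 41.7 in old and 0.992, 3.10 and 1.93 in young. The remaining regions of the 12 with the smallest p-values were at Podxl, the sialomucin podocalyxin, Bmp4, a ligand of the BMP pathway, the muscarinic receptor gene Chrm3, Gm8439 and Podnl1. Their differences ran from 1.00 at Podnl1 to 1.76 at Chrm3.

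**Figure D2:**
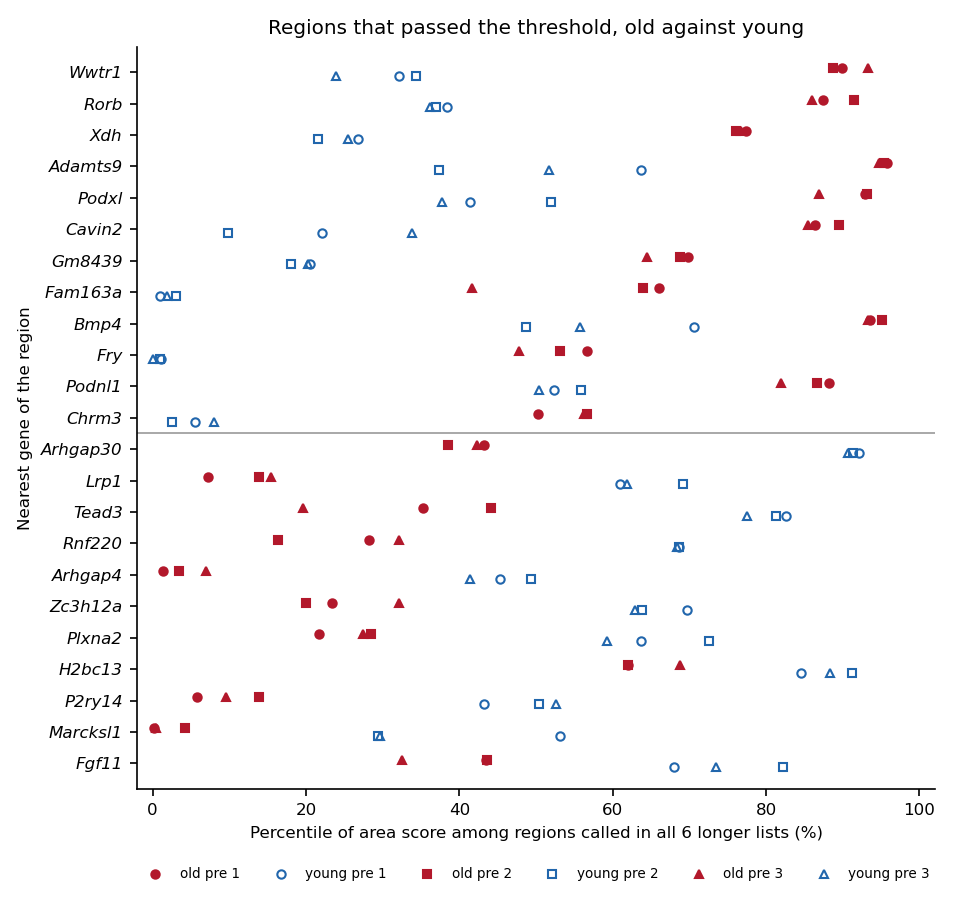
Percentile of the area score (x axis, %) at regions of smallest p-value in each direction, labelled by nearest gene (y axis), with 1 point per library of the 6 longer lists (filled, old; open, young). The upper 12 regions have all 3 old libraries to the right of the young ones, and the lower 11 to the left.

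Further regions passed as higher in old HSCs. Both ranked regions of Amotl2 passed, the start of the gene at 92.3, 88.0 and 94.0 in old against 68.5, 62.6 and 62.8 in young (1.01 ± 0.13, adjusted p = 0.0195, limma). A region no more than 1 kb from the start or end of Itgb3, which were not told apart, stood at 84.1, 82.2 and 82.0 against 55.4, 44.7 and 47.4 (0.97 ± 0.12, adjusted p = 0.0195, limma). Within Hk2, a hexokinase gene of the first step of glycolysis, the percentiles were 63.9, 60.0 and 65.6 against 15.1, 9.05 and 3.73. In all 3 genes the ages were clearly apart. At Vmp1, whose protein acts in autophagy at the endoplasmic reticulum, the region with the miR-21a hairpin stood at 99.9, 99.9 and 99.4 in old and 94.9, 80.7 and 90.8 in young HSCs (1.57 ± 0.21, adjusted p = 0.0314, limma). It was thus among the strongest regions of every old library and still high in the young ones. Sp140, a chromatin reader of nuclear bodies, was at 81.1, 83.1 and 84.6 against 49.5, 55.8 and 50.8 (0.90 ± 0.12, adjusted p = 0.0195, limma). These genes were named because they lie in gene lists, host the hairpin or recur in the comparisons below, and Hk2 was chosen after its values were seen.

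Of the 13 regions that passed as lower in old HSCs, those at regulators of small GTPases and at an actin-binding protein are given first. The Arhgap30 start (chr1:171388336-171390496) stood at 43.2, 38.5 and 42.4 in old and 92.1, 91.4 and 90.7 in young HSCs, a difference of −1.58 ± 0.11 (adjusted p = 0.00167, limma). Arhgap30 codes for a GTPase-activating protein, and both ages were tight at this region. Arhgap4, another such gene, was at 1.32, 3.45 and 6.96 in old and 45.2, 49.4 and 41.4 in young (−1.72 ± 0.25, adjusted p = 0.0302, limma). Marcksl1, a MARCKS-like actin-binding protein, was at 0.235, 4.20 and 0.385 against 53.1, 29.4 and 29.6 (−2.07 ± 0.35, adjusted p = 0.047, limma). At Arhgap4 and Marcksl1 the old libraries ranked the region near the bottom of their lists. Tead3, one of the TEAD factors that YAP and TAZ act through, was at 35.3, 44.1 and 19.7 in old against 82.7, 81.3 and 77.5 in young HSCs (−1.32 ± 0.18, adjusted p = 0.0243, limma).
Other regions that passed as lower were at the endocytic receptor Lrp1 (−1.55), the ubiquitin ligase Rnf220 (−1.16), the RNase Zc3h12a (−1.08), the semaphorin receptor Plxna2 (−1.04), the UDP-glucose receptor P2ry14 (−1.29), H2bc13 of the histone H2B family (−0.82), Fgf11 (−0.93) and, outside the rule for naming regions, the amino acid transporter Slc43a2 (−0.89).

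By location, of the 63 higher regions 17 lay at gene ends (no more than 1 kb from a start or end), 25 within a gene, 19 outside genes and 2 beyond 100 kb of any gene. Of the 13 lower regions, 7 were at gene ends, 5 within genes and 1 outside. Among the 14671 tested, 58.0% were at gene ends, 25.0% within genes, 15.3% outside and 1.69% beyond 100 kb.

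The area score grows with the width of a peak, and width moved with these differences. At Rorb the peaks were 1798, 2126 and 1745 bp wide in old and 895, 795 and 623 bp in young HSCs, and at Wwtr1 1898, 2092 and 1786 bp against 1294, 1203 and 981 bp. At Arhgap30 they were 843, 1144 and 661 bp in old against 2144, 1724 and 2097 bp in young. In each of the 3 regions the ages did not overlap in width. Every old peak was wider than every young one in 33 of the 63 higher regions (52.4%, beside 0.893% of all ranked regions), and every old peak was narrower in 10 of the 13 lower regions (76.9%, beside 3.12%). At Wwtr1 the height differed too, with a summit −log10 p of 8.11, 8.12 and 7.79 in old and 6.20, 5.18 and 5.59 in young. Ranked by the summit, Wwtr1 passed (2.32, adjusted p = 4.2e-05, limma) while Arhgap30 did not (−0.56, adjusted p = 0.116, limma). Ranked by area per base, 60 of the 63 higher and 7 of the 13 lower regions kept their direction, beside 9255 of all 14671. The lower regions thus kept it in a smaller share than all ranked regions. Only 1 region of 14671 passed the threshold by this measure.

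The count of regions also turned with the transposition day and with single libraries. With the day as a covariate, all 76 regions kept their direction and 15 of the 63 higher and 3 of the 13 lower stayed past the threshold, while the whole count became 16 higher (0.109%) and 95 lower (0.648%), 0.757% in all. In these lists day 1 held old pre 1 and 2 alone, so the day-adjusted difference set only old pre 3 against young pre 1 to 3. Since the ages did not overlap in any of the 76, their direction could not change in that fit. With the list length as a covariate the whole count was 51 higher (0.348%) and 10 lower (0.0682%), 0.416% in all. Of the 6 libraries, 4 were transposed on day 2 (old pre 3 and young pre 1 to 3). By themselves they gave 3 higher and 57 lower regions, with the lone old library assumed to vary like the others. Without old pre 1 the count fell to 2 higher and 2 lower, without young pre 3 to 12 and 4, and without old pre 2 it was 23 and 36. By the summit −log10 p in place of the area, 124 regions were higher (0.845%) and 49 lower (0.334%), 1.18% in all, all 76 regions kept their direction, and 40 of the 63 and 3 of the 13 passed again.

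**Figure D3:**
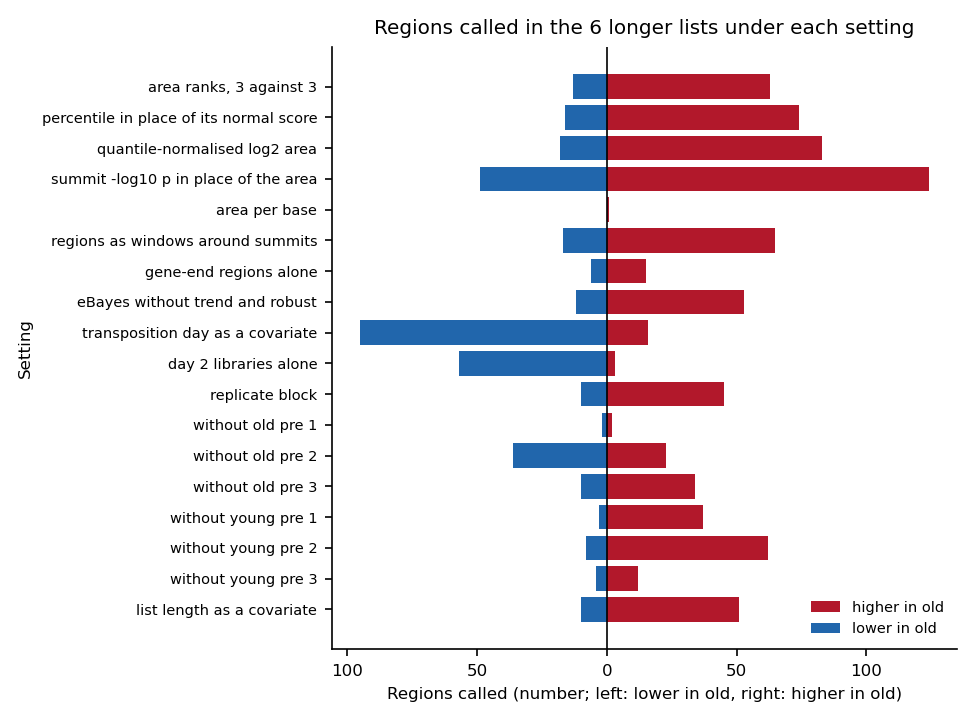
Number of regions past the adjusted threshold in the 6 longer lists (x axis; bars to the right, higher in old; to the left, lower in old) for the area ranks and each other setting (y axis). The area ranks give 63 higher and 13 lower, the summit 124 and 49, and area per base 1 and 0, and with the transposition day as a covariate they turn to 16 higher and 95 lower.

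The shortest list of each age was not used in that ranking. Of the 63 higher regions, 24 were called in old pre 4 and 15 in young pre 4, although the list of young pre 4 was the longer of the pair. Of all 14671 ranked regions, 5320 were called in old pre 4 and 8965 in young pre 4. The share of the 63 in old pre 4 was thus near that of all regions, and the share in young pre 4 was below it. Of the 63, 11 were called in old pre 4 alone and 2 in young pre 4 alone, where the 14671 ranked regions had 56 in old pre 4 alone and 3701 in young pre 4 alone. Wwtr1, Cavin2, Podxl and Xdh were among those called in old pre 4 and not in young pre 4. Of the 13 lower regions, 0 were called in old pre 4 and 9 in young pre 4, Arhgap30 and Tead3 among them. For the lower regions the share in young pre 4 was near that of all regions, and the share in old pre 4 was below it. For 13 of the higher regions, which were called in all 8 libraries, old pre 4 ranked above young pre 4 in 12 and above every young library in 11, beside 2888 and 1821 of the 5264 regions called in all 8.

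Ranked over those 5264 regions with all 8 libraries, no region passed by area with limma (0%), while 252 had an unadjusted p under 0.05, 161 of them higher in old HSCs and 91 lower. The smallest adjusted p was 0.0618. Every old library lay above every young one in 2.53% of the regions and below in 1.67%. At Rorb the percentiles were 68.3, 78.7, 63.5 and 21.0 in old and 3.11, 1.93, 0.674 and 0.0475 in young HSCs, a difference of 2.63 ± 0.40 (adjusted p = 0.0618, limma). Old pre 4 was the lowest of the old libraries at Rorb and still above all young ones. A region near Tmc1 was at 40.9, 35.5, 25.6 and 36.4 against 0.427, 2.86, 1.49 and 3.05 (1.74 ± 0.23, same adjusted p), and one within Gda at 15.3 to 30.7 against 0.123 to 1.47. In these 3 regions the ages were apart with an adjusted p just over the threshold. Others of the 12 with the smallest p-values that were higher in old were at B4galt5, Gm6569, Arhgef10, the Wnt ligand gene Wnt7b, the collagen gene Col16a1, 4932438H23Rik, Sp140 and Gm5148, with differences of 1.09 to 2.17. Those lower in old were at Naif1, Eif4a3, Ptp4a3, Aspm, Pisd, Kif23, Med1, Tmem107, Wdr46, Hsd17b11, Cops7a and Sf3a1, with differences of −1.08 to −0.56. None of these lower regions passed, with an adjusted p of 0.194 (Naif1) to 0.580 (Sf3a1, limma). They were named because their ages did not overlap. Aspm and Kif23 act in mitosis, and Eif4a3 and Sf3a1 act on RNA splicing and its complexes.

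By the summit −log10 p, a value at 1 position of the peak, 33 of the 5264 regions passed (0.627%), 30 as higher in old HSCs (0.57%) and 3 as lower (0.057%). All 33 had the same direction by area, and 9 had also passed in the 6 longer lists. Sp140 led, with summit percentiles of 70.8, 83.7, 69.3 and 86.7 in old and 8.40, 18.3, 3.21 and 9.91 in young HSCs (2.14 ± 0.24, adjusted p = 6.5e-05, limma). Nav1, a neuron navigator gene, was at 34.0, 37.7, 60.5 and 54.0 against 3.22, 2.50, 2.20 and 3.31 (1.83 ± 0.25, adjusted p = 0.000686). Both regions had all old libraries clearly above all young ones. Regions of genes known for roles in blood cells were among the 30: one within Runx1, the transcription factor needed for HSC formation, at 48.2, 52.4, 29.4 and 51.3 against 17.0, 7.54, 7.86 and 6.96 (1.20 ± 0.24, adjusted p = 0.0209, limma), one within Etv6, an ETS factor needed for adult HSC survival (1.03 ± 0.24, adjusted p = 0.0489, limma), and one at Socs3, a feedback inhibitor of JAK-STAT signalling (1.10 ± 0.22, adjusted p = 0.0206, limma). These 3 were chosen from the 30 after their values were seen, and by area in the same 8 libraries their adjusted p ran from 0.252 to 1.00. The Vmp1 region with the miR-21a hairpin passed as well (1.26 ± 0.24, adjusted p = 0.0114, limma). The 3 lower regions were at Naif1, Tmem107 and Ptp4a3. With the list length of each library as a covariate the area ranks gave 16 higher regions (0.304%) and 1 lower (0.019%), 0.323% in all. With the day as a covariate they gave 8 higher (0.152%) and 51 lower (0.969%), 1.12% in all.

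Presence was then compared at equal length. Among the strongest 5329 regions of each library, 34 regions were in all 4 old and no young library (0.438% of the 7766 regions in any) and 9 were in all 4 young and no old library (0.116%). In the full lists there were 0 of either kind. The regions with the largest difference in rank were at Adamts9, Wwtr1, Podxl, Sp140, Cavin2, Rorb, Podnl1 and Gm5148 on the old side. At Cavin2 the region ranked 1998, 1533, 2144 and 2144 in the old lists and 12000, 15285 and 9833 in young pre 1 to 3, and it was not called in young pre 4. At Adamts9 it ranked 619, 677, 772 and 3953 against 5352, 9405, 7122 and 8246. Cavin2 therefore stood well within the strongest regions of each old list, while Adamts9 missed the limit in young pre 1 by a small margin.
On the young side the 9 regions were at Arhgap30, Ppcdc, Dot1l, Arhgap11a, Hic1, B3galt4, Cct4, Vars2 and Ecd. At Arhgap30 the region ranked 1172, 1267, 1376 and 5073 in the young lists and 8412, 9220 and 8499 in old pre 1 to 3, and it was not called in old pre 4. At Dot1l, the H3K79 methyltransferase gene, it ranked 4681, 3045, 4331 and 3725 against 7037, 6959 and 6241, and it too was not called in old pre 4. None of the 9 was called in old pre 4, which the definition fixes in advance because its whole list is 5329 regions. On the old side, 18 of the 34 were called in young pre 4, below its strongest 5329. Of the 34 and the 9, 14 and 1 were regions that had passed in the ranking of the 6 longer lists. Without old pre 4 the counts were 80 and 21, and without young pre 4 they were 41 and 40. Leaving out a library loosens the definition, so neither count could fall. With limma on log2(N/rank), where N is the number of regions kept, 1 of 6785 regions passed (0.0147%) in either direction, a test with little power at this size.

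In the 6 longer lists, each reduced to 15926 regions, 327 were in all 3 old and no young list (1.62% of 20154) and 224 in all 3 young and no old list (1.11%). With limma on log2(N/rank), 105 of 17833 regions were higher in old HSCs (0.589%) and 20 lower (0.112%), 0.701% in all. The region with the largest difference on the old side was at Trim47, at ranks 6503, 3778 and 7332 in old pre 1 to 3 and 18437 in young pre 1, with no call in young pre 2 or 3. A region within Aldh1a1, the retinaldehyde dehydrogenase gene of the ageing list, ranked 6773, 4360 and 8314 in old and was called in no young list. Tm4sf1, a tetraspanin-like membrane protein and also a gene of that list, was at ranks 7159, 7429 and 7927 in old and in no young list. These 3 regions were in no list of the remaining libraries, old pre 4 and young pre 4. The other old-side regions with the largest differences were at Fam163a, Fry, Wwp2, Hao2 and Hoxb8. On the young side, a region at Per1, a gene of the circadian clock, ranked 72, 6707 and 657 in young pre 1 to 3, 19449 and 16438 in old pre 1 and 2, and was not called in old pre 3. Its young ranks were widely spread. A region at Nfkbiz, an inhibitor-like protein of NF-kB, ranked 5433, 12490 and 3962 in young and was not called in old pre 1 to 3. The other young-side regions with the largest differences were at LOC108167320, Rps13, Hnrnph1, Adgra2, Vasp and Srsf7. With the transposition day as a covariate limma called 0 regions, without old pre 1 it called 8, and without old pre 3 it called 210.

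Of the 36 ageing genes 23 had a region ranked in the 6 longer lists. In all, 29 of their 32 regions were higher in old HSCs (90.6%, beside 48.1% of all 14671 regions), with a median difference of 0.61 beside −0.01. Of these, 9 passed as higher and 0 as lower, at Wwtr1, Cavin2, Rorb, Amotl2 (2 regions), Itgb3, Gda, Nupr1 and Mt2. Every old library lay above every young one in 22 of the 32 (68.8%, beside 9.12% of all regions). The metallothionein Mt2 was at 67.4, 73.5 and 45.1 in old and 9.49, 20.4 and 5.31 in young (1.57 ± 0.27, adjusted p = 0.047, limma), and Nupr1, a stress-induced nuclear protein, at 95.9, 96.7 and 93.6 against 81.2, 85.6 and 79.3 (0.78 ± 0.12, adjusted p = 0.0314, limma). Ptprk, Mt1 and Plscr2 had differences of 1.34, 1.19 and 0.97 with adjusted p of 0.131, 0.129 and 0.0949. At Selp and Alcam the differences were 0.28 and 0.09, and at Vwf, which has 2 ranked regions, the one with the smaller p was at −0.12 (adjusted p = 0.791, limma). There the 6 libraries overlapped, at 87.4, 78.0 and 78.2 in old and 81.0, 84.6 and 87.5 in young. The count of 9 became 4 with the day as a covariate, 3 with the day 2 libraries alone, 0 by area per base (24 of 32 higher), 2 without old pre 1, 5 without old pre 2 and 3 without young pre 3. In all of these 0 passed as lower.

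**Figure D4:**
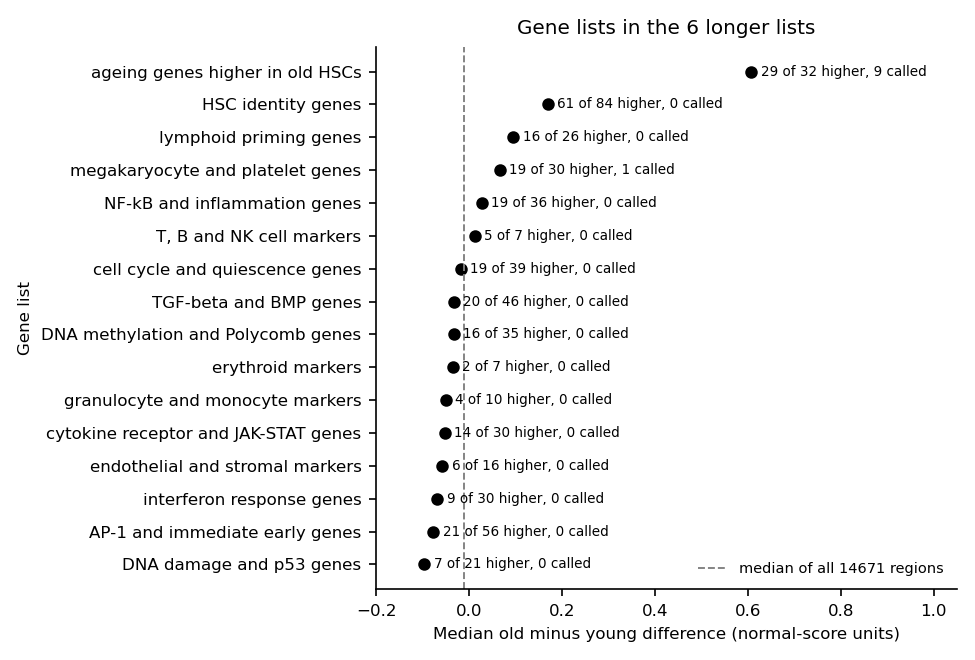
Median difference, old minus young, of the ranked regions of each gene list in the 6 longer lists (x axis, normal-score units), with the number of regions higher in old and the number past the adjusted threshold in that direction. The ageing genes lie at 0.61 and the other 15 lists between −0.10 and 0.17, around the dashed median of all regions.

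Among the 15 other lists, 1 region passed the threshold, the Itgb3 region that also belongs to the megakaryocyte and platelet genes. Over all 14671 ranked regions 7059 (48.1%) were higher in old, which is the base for the counts below. Of the 84 regions at HSC identity genes, 61 (72.6%) were higher in old (median 0.17), with 0 called. Every old library lay above every young one in 14 (16.7%, beside 9.12% of all regions) and below in 1 (1.19%, beside 9.56%). The regions of this list with the largest differences were within Angpt1 (1.11, adjusted p = 0.389), Erg (1.09, adjusted p = 0.417) and, in the other direction, Msi2, at 19.1, 16.3 and 1.25 in old against 43.9, 33.2 and 30.8 in young (adjusted p = 0.323, limma). Of 30 megakaryocyte and platelet regions 19 were higher (median 0.07), with a region near Cd9, a tetraspanin of platelets, at 52.2, 59.4 and 36.6 in old against 31.0, 1.60 and 3.09 in young (1.49 ± 0.42, adjusted p = 0.207, limma). Of 26 lymphoid priming regions 16 were higher (median 0.10), with a region within Foxo1 at 1.19 (adjusted p = 0.198) and one within Notch1 at −1.17 (adjusted p = 0.138, limma) in opposite directions. Of the 4 ranked regions of Notch1, 2 were higher in old and 2 lower. None of these single differences passed the threshold.
At AP-1 and immediate early genes 21 of 56 regions were higher (median −0.08), with a region 15761 bp from Fos at 1.00 (adjusted p = 0.158, limma) and one within Csrnp1 at −1.17. Of the 5 ranked regions of Fos, 2 were higher in old and 3 lower. At Csrnp1 old pre 1 stood apart, at 35.8 against 84.6 and 96.7 in old pre 2 and 3 and 97.3 to 98.3 in the young libraries. Of 30 cytokine receptor and JAK-STAT regions 14 were higher (median −0.05). Il3ra, a chain of the interleukin-3 receptor, was at 21.7, 70.0 and 21.5 in old and 92.3, 94.0 and 92.2 in young (−1.82 ± 0.35, adjusted p = 0.0996, limma), and Socs2 at 80.6, 77.9 and 81.6 against 98.3, 91.8 and 94.7 (−0.87 ± 0.17, adjusted p = 0.0817, limma). At both the ages did not overlap, without passing. Interferon response genes had 9 of 30 higher (median −0.07), DNA damage and p53 genes 7 of 21 (−0.10), TGF-beta and BMP genes 20 of 46 (−0.03), NF-kB and inflammation genes 19 of 36 (0.03), cell cycle and quiescence genes 19 of 39 (−0.02) and DNA methylation and Polycomb genes 16 of 35 (−0.03). In this last list Dnmt3a, a de novo DNA methyltransferase often mutated in clonal haematopoiesis, had a region at 5.99, 11.1 and 6.92 in old against 31.1, 35.8 and 37.1 in young (−1.02 ± 0.22, adjusted p = 0.093, limma). Among the p53 genes, Bbc3, which codes for the cell death protein PUMA, was at 51.2, 64.5 and 44.7 against 95.1, 92.9 and 77.4 (−1.20 ± 0.24, adjusted p = 0.0996, limma). The markers of other cells gave 5 of 7 (T, B and NK), 4 of 10 (granulocyte and monocyte), 2 of 7 (erythroid) and 6 of 16 (endothelial and stromal) higher in old, with 0 called in each.

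Of the regions that passed in the 6 longer lists, 5 lay in a stretch of 2.63 Mb on chromosome 19 (chr19:19109988-21738500), at Rorb, Tmc1, Gda, Abhd17b and Cemip2. All 5 were higher in old HSCs, and 11 of the 12 ranked regions in the stretch had that direction, 6 of them with an unadjusted p under 0.05 and with a median difference of 0.59. The region near Cemip2 was at 85.1, 81.7 and 76.6 in old and 48.4, 50.2 and 43.9 in young (0.95 ± 0.13, adjusted p = 0.0235, limma), and that near Abhd17b at 63.2, 70.3 and 60.9 against 33.9, 28.8 and 24.4. Elsewhere in the stretch, a region no more than 1 kb from the start or end of Zfand5 was at 91.5, 80.2 and 89.9 against 89.1, 77.9 and 80.4, and the ages overlapped there. The stretch was chosen after its values were seen, as the only group of called regions less than 3 Mb apart with more than 2 of them, and it has no test.

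**Figure D5:**
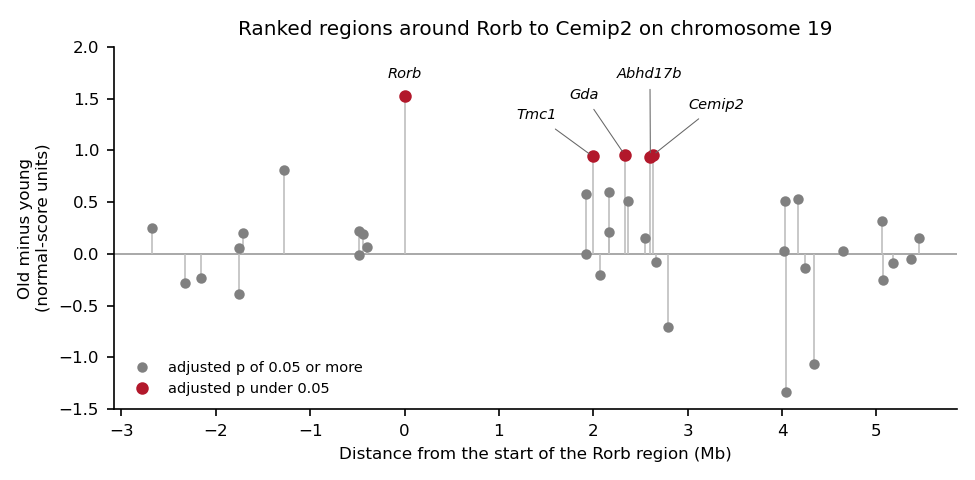
Difference, old minus young (y axis, normal-score units), of each ranked region around the stretch on chromosome 19 against its distance from the start of the Rorb region (x axis, Mb), with regions past the adjusted threshold in red. The 5 regions in red lie between 0.94 and 1.53, with regions closer to 0 among and around them.

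Measures of whole libraries did not separate the ages after adjustment over 13 tests (exact permutation of the age labels, two-sided except for the similarity of libraries, for which 4 against 4 libraries allow a smallest p of 0.0286). The number of peaks was 20202 ± 11195 in old and 20575.5 ± 7884 in young (SD, n = 4 each, exact permutation p = 0.971). At equal length, 1.25%, 1.27%, 1.11% and 1.11% of the peaks of the old libraries lay beyond 100 kb of a gene, and 0.879%, 1.06%, 0.985% and 1.02% of those of the young. The old values were all above the young ones by a small step (exact permutation p = 0.0286, adjusted p = 0.371). The share at gene ends was 69.3%, 68.8%, 71.3% and 67.9% in old against 73.5%, 70.1%, 71.4% and 71.9% in young (exact permutation p = 0.0571, adjusted p = 0.371), with some overlap. The Jaccard index of the strongest regions (regions shared over regions in either library) averaged 71.0% for pairs of the same age and 70.7% for pairs of different ages (one-sided exact permutation p = 0.4, adjusted p = 1). Rank correlations across regions, which are not independent replicates, had a median of 0.912 within age and 0.893 between ages in the 6 longer lists, and of 0.815 within age and 0.849 between ages over 8 libraries, in the opposite order.

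After transplantation the same regions were compared over all 16 libraries. In 5262 regions called in all of them, the age difference before transplantation did not differ from that after it at the adjusted threshold in any region (0%, limma with donor as a block, 388 with an unadjusted p under 0.05, smallest adjusted p 0.0539). The 13 regions that had passed as higher in old HSCs and were called in all 16 lists had a positive difference after transplantation in 11 and a smaller one in 12. The Vmp1 region with the miR-21a hairpin averaged 99.3 ± 0.621 in old and 57.0 ± 32.9 in young before transplantation, and 96.4 ± 3.03 and 99.3 ± 0.118 after it (percentile, SD, n = 4 each). Its old libraries were high at both stages, while its young libraries were scattered before, from 12.6 to 86.8, and high after (interaction 2.92 ± 0.48, adjusted p = 0.0539, limma). At Sp140 the means were 64.8 and 6.85 before and 73.5 and 52.2 after (interaction 1.58 ± 0.42, adjusted p = 0.328, limma). At Rorb both ages averaged lower after, with 57.9 and 1.42 before and 20.1 and 0.0760 after (interaction 0.50 ± 0.52, adjusted p = 0.871, limma). All libraries after transplantation were transposed on other days than those before it, so stage and day cannot be told apart. These 13 regions were chosen for a difference before transplantation, and a smaller difference in libraries not used for that choice carries no test here. No share over all 5262 regions is given beside the 11 and the 12, so neither count can be read against a background.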

How the data were processed

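ATAC-seq peaks were deposited as 1 list per library, called by the authors with Genrich, per the submitters' processing notes and the file layout, on mm10. Not given in the sources used here are the aligner, its settings and any version. Read depth is unknown, so no counting interval was possible. Column 7 holds the authors' area score (smallest value 200.001), and column 8 the deposited −log10 p of the summit.

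Peaks on the named chromosomes of the 8 lists were merged at an overlap of 1 bp or more. The largest score per region was turned into a percentile within each library over the regions called in all libraries compared, then into normal scores, and tested with limma 3.58.1 in R 4.3.3 (trend and robust empirical Bayes) with Benjamini-Hochberg adjustment at 0.05. Ranking removes differences of scale between libraries but not those of list length, so presence was compared in the strongest N regions (5329 for 8 libraries, 15926 for 6). Age by stage was fitted over 16 libraries with the donor as a block (correlation 0.17). Library measures were tested by exact permutation. Regions were given to the nearest of 21887 protein-coding genes (RefSeq GRCm38.p6) within 100 kb, and gene ends reach 1 kb. The tests were checked on simulated data: by rank, shifts of 1 and 2 units were recovered in 58% and 94% of regions with 8 libraries and in 52% and 86% with 6. Of the regions with no shift, 0.237% and 0.0553% were called with 8 and 6 libraries. The presence test was given shifts of 2 and 4 log2 units of area. It recovered 0% of both with 8 libraries, and 14.9% and 62.6% with 6. The simulated libraries varied independently, with no effect of transposition day or list length, so recovery under such effects was not tested.

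Named regions are the 12 per direction with the smallest p (made up by non-overlapping regions where fewer passed), the 8 per direction with the largest difference in log2(N/rank) and the 3 per gene list with the largest difference, with exceptions named in the text, and a few of them are not reported here. Of 348 listed genes 346 matched. The members and lists were chosen with earlier results of these data known. Old libraries are single donors and young ones pools, per the labels, and p-values measure only the spread between these libraries. Replicate numbers were not taken as pairs. Alternatives covered normalization, ranked column, width, windows, day, replicate block, list length and each library left out. Python 3.11.15, pandas 2.3.3, numpy 2.4.6, scipy 1.17.1, statsmodels 0.14.6 and matplotlib 3.10.9 were used.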

Additional observations from a re-analysis of the deposited data

Results flagged for a closer look

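In 4 of the 70 groups of 4 libraries checked, 1 library lay far from the other three, where chance alone gives about 5%. The share of peaks on the X chromosome in the full lists was 1.11% in old pre 4 and 1.77%, 1.80% and 1.81% in the other old libraries. At 4932438H23Rik, young pre 1 stood at the 6.09 percentile and the other young libraries at 0.712, 1.36 and 0.465. At Gm5148, old pre 3 stood at 31.4 and the other old libraries at 58.9, 57.8 and 62.1. At Wdr46, old pre 2 stood at 6.66 and the other old libraries at 3.52, 3.62 and 3.92.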

How the results depend on the processing

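Counts of regions past the threshold depended on the settings. In the 6 longer lists the count of 76 became 173 by summit, 1 by area per base and 21 at gene ends alone, and 4 to 70 with 1 library left out. With 8 libraries the count of 0 became 33 by summit, 5 without trend and robust fitting, 59 with the day as a covariate, 33 with day 2 alone and 17 with list length as a covariate, and 0 to 10 with 1 library left out. For length-matched presence with limma, the 1 region of 8 libraries became 5 by summit, 9 with the day as a covariate and 0 with regions in at least 1 library or with windows (0 to 8 with 1 library left out), and the 125 of the 6 lists became 20 at the lower N, 46 by summit, 34 with regions in at least 1 library, 49 with windows and 0 with the day as a covariate (8 to 210). The all-or-none counts of 43 and 551 became 13 and 233 at the lower N of 2664 and 7963, 0 and 215 in the full lists, and 52 to 101 and 686 to 974 with 1 library left out. Leaving out a library only loosens the all-or-none rule, so the counts with 1 left out could not fall. The interaction count of 0 became 1 with percentiles, 3 by summit and 0 to 5 with 1 library left out. The 9 regions of the ageing list became 0 by area per base, 4 with the day as a covariate, 3 with day 2 alone and 2 to 10 with 1 library left out.

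With the replicate block the counts were 7 (8 libraries), 55 (6 lists), 0 and 67 (matched presence), 0 (interaction) and 8 (ageing list). Same-numbered libraries correlated at 0.45, 0.20, 0.04 and 0.68 over 8 libraries and at 0.04, −0.03 and 0.14 over 6, and other-numbered ones at −0.71 to 0.65 and −0.18 to 0.18. Old pre 2 correlated best with young pre 1 in both, and same-numbered old and young libraries come from different donors, so the numbers were not read as pairs.

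By area per base the direction turned at Rorb (−0.056), Fam163a (−0.60), Arhgap4 (0.013), Zc3h12a (0.34), H2bc13 (0.55) and P2ry14 (1.03) in the 6 lists, and at Rorb (−0.13), Aspm (0.22), Pisd (0.11), Wdr46 (0.14) and Hsd17b11 (0.00037) in 8 libraries. The cause was not tested. Over all alternatives, single named regions kept direction and side of the threshold in 218 cases and lost the threshold in 133 in the 6 lists. With day 2 alone the old minus young difference in the full lists was 14.9 points in the gene-end share (−0.0866 with all libraries), −0.599 points beyond 100 kb (0.458) while the similarity within ages minus that between ages was 18.5 points (−3.84). With 1 library left out the differences ran from −5.88 to 4.70 points (gene-end share), −4027 to 4465 (peaks), −66.1 to 9.33 bp (width) and −4.55 to 3.60 Mb (covered) in the full lists, and from −272 to 121 bp, −1.79 to 0.708 Mb and −0.973 to 1.67 points (similarity) at equal length. limma was not run on the full lists, and windows were not run for single regions. Read depth, which is unknown, limits all of these, and a region missing from a short list need not be closed.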
